A study of Mus musculus with 6 samples.

Results

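The 8 genes described here encode the troponin isoforms of striated muscle: Tnni1, Tnni2 and Tnni3 for troponin I, Tnnt1, Tnnt2 and Tnnt3 for troponin T, and Tnnc1 and Tnnc2 for troponin C. They were taken by symbol from the count table, in which 8 of 8 were found among 34714 genes, and all 8 passed the filter on low counts together with 15788 genes in all. RNA was sequenced from gastrocnemius (Gas) muscle of untreated mice at 8 weeks of age, as 3 WT and 3 M92KO libraries. WT mice were age-matched C57BL/6 controls, and M92KO mice carry a global deletion of the miR-92b gene on a C57BL/6J background, so the loss is not limited to muscle. The animals of the study were male, and the M92KO libraries came from 1 knockout strain. All libraries came from whole muscle, in which fewer fibres of a type and less RNA per fibre cannot be told apart.

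Troponin is the calcium switch of the thin filament. Troponin C binds the calcium released on excitation, troponin I holds back the interaction of actin with myosin until this happens, and troponin T ties both to tropomyosin. Each subunit is made from separate genes in different muscles. Tnni2, Tnnt3 and Tnnc2 belong to fast fibres and Tnni1 and Tnnt1 to slow fibres, Tnnc1 is shared by slow fibres and the heart, and Tnni3 and Tnnt2 are the adult cardiac forms, of which Tnnt2 is also made in developing skeletal muscle. The mouse Gas is known as a mostly fast muscle. The comparison asks whether loss of miR-92b went along with a different set of troponin isoforms, a question close to that of the fibre-type genes measured by qPCR in the study.

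Total counts ranged from 38246649 to 48209846 in WT and from 33160508 to 37019640 in M92KO libraries, so each M92KO library was the smaller. Values are given in CPM, that is, counts scaled to the TMM-normalized size of the library. At these depths 3 counts, taken as the floor for counting error alone, were worth 0.0622 to 0.0905 CPM. The knocked-out gene Mir92b itself is not analysed here, so it gives no check of the genotype labels. Nothing in the labels gives a batch or a date. The fast-fibre myosin gene Myh4 lay between 22945 and 31515 CPM and the slow-fibre myosin gene Myh7 between 2.47 and 12.7 CPM. This goes with the Gas muscle named in the labels, which is known as mostly fast. Of the markers of heart muscle, Nppb was at 0 in every library and Myl7 at 0 in 5 of 6, while Myh6 had 3.81 to 6.39 CPM and Myl4 2.69 to 3.52 CPM, above the level of Tnnt2 in each library.

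Fast troponins made up nearly all troponin RNA in either genotype, and 0 of the 8 genes passed the test for a difference between M92KO and WT mice. Troponin counts took between 2.43% and 2.99% of a library, and 99.9% or more of them came from Tnni2, Tnnt3 and Tnnc2. At an adjusted p-value of 0.05 in edgeR's quasi-likelihood test, 0 of 8 members were called, as were 0 of the 15788 genes tested (0%). Without adjustment, 0 members passed 0.05 on the higher side (5.47% of all genes) and 0 on the lower side (6.92%), against 12.4% of all genes on either side. For 0 of 8 members did the 3 M92KO values lie apart from the 3 WT values, whether above (8.77% of all genes) or below them (9.58%), against 18.4% of all genes either way. DESeq2's Wald test called 0 members at an adjusted p-value of 0.05 (2.19% of all genes) and 0 at an unadjusted one (10.9% of all genes), with no adjusted value for Tnni3. With limma on quantile-normalized values, 0 members passed with adjustment (0.121% of all genes) and 0 without (6.59%). The log2 differences (M92KO minus WT) of the members ran from -0.33 to 0.09 with a median of 0.03, beside a median of -8.07e-05 over all genes, and 5 were above 0 and 3 below.

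**Figure D1:**
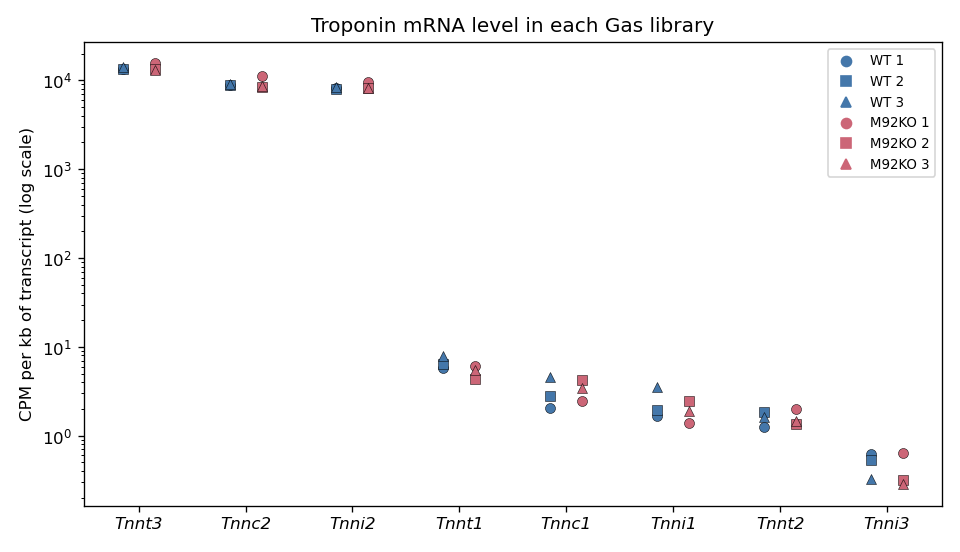
Level of each troponin gene in each library, in CPM per kb of transcript on a log scale, ordered by the median over 6 libraries; blue symbols are the WT and red symbols the M92KO libraries. The 3 fast genes lie at or above 8037 and the slow and cardiac genes below 8 CPM per kb, with WT and M92KO symbols intermingled in every column.

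Divided by the length of the transcript, the levels of the genes can be set in order. Tnnt3 stood first with a median of 13443 CPM per kb over the 6 libraries (range 13057 to 15519), followed by Tnnc2 with 8932 (8378 to 11153) and Tnni2 with 8188 (8037 to 9658). The ranges of Tnnc2 and Tnni2 overlapped, although Tnnc2 was the higher in 6 of 6 libraries. The slow and cardiac genes were far below these. Among them, Tnnt1 led with a median of 5.94 CPM per kb (4.35 to 7.86), ahead of Tnnc1 with 3.12 (2.07 to 4.56), Tnni1 with 1.92 (1.38 to 3.50) and Tnnt2 with 1.55 (1.24 to 2.02). Each of these overlapped the next in range, but within a library Tnnt1 was above Tnnc1 in 6 of 6, Tnnc1 above Tnni1 in 6 of 6 and Tnni1 above Tnnt2 in 5 of 6. The order of Tnni1 and Tnnt2 depends on the length used. Median coding lengths were 749 and 1095.5 bases, and the longest transcripts had 1150 and 1200 bases. In CPM not divided by length, Tnnt2 was above Tnni1 in WT 1, WT 2, M92KO 1 and M92KO 3, and below it in WT 3 and M92KO 2. The range of Tnnt1 lay wholly above those of Tnni1 and Tnnt2. Tnni3 was last with 0.427 CPM per kb (0.282 to 0.640), below the range of Tnnt2.

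The genes lie in pairs of troponin I and troponin T on the GRCm38 build, with positions from GENCODE M21. Tnni2 (chr7:142441808-142444410, plus strand) lies 54426 bases from Tnnt3 (chr7:142498836-142516009, plus strand), which makes a fast pair. Tnni3 (chr7:4518305-4524229) and Tnnt1 (chr7:4504570-4516382), both on the minus strand, lie 1923 bases apart, and Tnni1 (chr1:135779434-135810989) and Tnnt2 (chr1:135836354-135852260), both on the plus strand, lie 25365 bases apart. Both of these pairs join a slow gene with a cardiac one. Tnnc1 (chr14:31208312-31211729, plus strand) and Tnnc2 (chr2:164777161-164779967, minus strand) lie alone. Within the pair of Tnnt1 and Tnni3, and of Tnni1 and Tnnt2, the slow gene had the higher median per median coding length. For Tnni1 and Tnnt2 this order depends on the length used, as given above.

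The fast troponin I gene Tnni2 had 5437, 5369 and 5633 CPM in the WT libraries and 6452, 5458 and 5480 CPM in the M92KO libraries. The first M92KO library was the highest of the 6, and the other 2 lay within the WT range. The WT mean of 5480 ± 137 CPM (SD, n = 3) compared with an M92KO mean of 5797 ± 567 CPM (SD, n = 3). On the log2 scale the difference was 0.08 (standard error 0.098, 95% interval -0.14 to 0.31, adjusted p = 0.792 from edgeR), so a change of more than 1.24-fold up or to less than 0.906-fold lay outside the interval.

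Tnnt3, the fast troponin T gene and the most abundant of the 8, had 13457, 13618 and 14322 CPM in WT and 15628, 13445 and 13148 CPM in M92KO libraries. Again the first M92KO library stood above all others, and the lowest value of the 6 was also from an M92KO mouse. The log2 difference of Tnnt3 was 0.03 (standard error 0.11, 95% interval -0.21 to 0.27, adjusted p = 0.944 from edgeR).

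The fast troponin C gene Tnnc2 had 6241, 6264 and 6415 CPM in WT and 7807, 5865 and 6091 CPM in M92KO libraries. It showed the same order of the M92KO libraries at its top, with M92KO 1 above and M92KO 2 and M92KO 3 below the WT values. Its log2 difference was 0.06 (standard error 0.12, 95% interval -0.21 to 0.34, adjusted p = 0.879 from edgeR). An exon of Tnnc2 overlaps one of Ube2c, which had only 4 to 32 counts in a library against 192031 to 306129 for Tnnc2. Without M92KO 1, the log2 differences of the fast genes were below 0: -0.0029 for Tnni2, -0.05 for Tnnt3 and -0.08 for Tnnc2. With limma after quantile normalization the log2 differences of these genes were -0.0982, -0.0083 and -0.0271. There a value is set by the rank of the gene in its library, so for genes this abundant the sign says little. The coefficients of variation of the fast genes were 1.49% to 3.33% over the WT and 9.62% to 16.1% over the M92KO libraries, and the latter rest on M92KO 1, since M92KO 2 and M92KO 3 lay close to each other in all 3 genes.

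**Figure D2:**
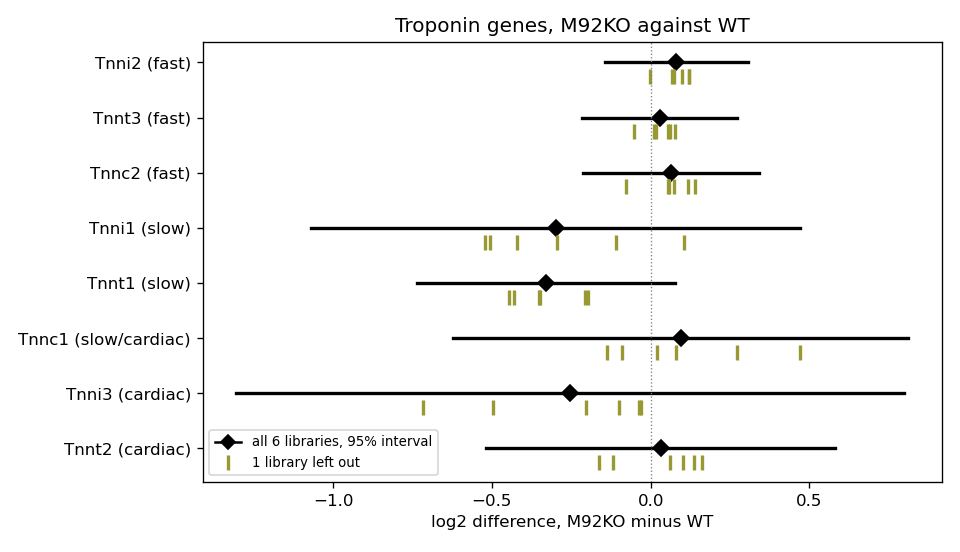
Log2 difference of each troponin gene, M92KO minus WT: diamonds with lines are the edgeR estimate from 6 libraries and its 95% interval, and ticks below are the estimates with 1 library left out in turn. All 8 intervals include 0, they are narrowest for the 3 fast genes, and the ticks of Tnni1 run from -0.52 to 0.10.

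From the lowest to the highest library, the slow genes spanned 1.81 to 2.53-fold and the fast genes 1.19 to 1.33-fold. Tnnt1, the slow troponin T gene, had 4.50, 5.10 and 6.18 CPM in the WT libraries and 4.84, 3.42 and 4.30 CPM in the M92KO libraries. The 2 lowest values were from M92KO mice, and only M92KO 1 lay within the WT range. This was the largest difference of the 8 genes in size, with a log2 difference of -0.33 (standard error 0.18, 95% interval -0.74 to 0.08), and it did not pass the test (adjusted p = 0.511 from edgeR, two-sided exact permutation p = 0.2). It stayed below 0 with each library left out, between -0.45 and -0.20. Without M92KO 1 it passed edgeR's unadjusted threshold of 0.05, as 1 of 8 members, but not the adjusted one (adjusted p = 0.257). In that setting 2984 of 16058 genes passed the unadjusted threshold, so 1 of 8 members is no excess over all genes.

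Tnni1, the slow troponin I gene, was read at low depth, with 57, 56 and 125 counts over the WT mice and 36, 61 and 52 over the M92KO mice, or 1.23, 1.45 and 2.62 CPM in WT and 1.04, 1.86 and 1.43 CPM in M92KO muscle. WT 3 was the highest, and the others overlapped. The log2 difference of -0.30 (standard error 0.34, 95% interval -1.07 to 0.47, adjusted p = 0.775 from edgeR) turned to 0.10 without WT 3.

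Tnnc1, the troponin C gene of slow fibres and heart, had 1.49, 2.02 and 3.29 CPM in WT and 1.79, 3.02 and 2.48 CPM in M92KO libraries. WT 3 was again the highest and WT 1 the lowest, so the M92KO values lay inside the WT range. Its log2 difference was 0.09 (standard error 0.31, 95% interval -0.62 to 0.81, adjusted p = 0.937 from edgeR). It was 0.47 without WT 3, -0.14 without WT 1 and -0.09 without M92KO 2. Over the WT mice the coefficient of variation was 42.2% for Tnni1 and 40.7% for Tnnc1, beside 11.9% and 10.4% from counting alone. The value of Tnni1 rests on WT 3, since WT 1 and WT 2 were close, at 1.23 and 1.45 CPM. For Tnnc1, WT 1 and WT 2 were further apart, at 1.49 and 2.02 CPM. For Tnnt1 the coefficient of variation was 16.2%, beside 6.63% from counting.

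Mice high in Tnni1 and Tnnc1 were also high in Myh7, the gene of the slow myosin heavy chain. Myh7 had 2.47, 3.26 and 12.7 CPM in the WT libraries and 2.76, 9.50 and 3.72 CPM in the M92KO libraries. The highest library for Tnni1, Tnnc1 and Myh7 was WT 3, the next was M92KO 2 in each of them, and WT 1 and M92KO 1 held the 2 lowest places. Tnnt1 shared the high value of WT 3 but was lowest in M92KO 2, and the slow regulatory myosin light chain gene Myl2 was highest in M92KO 3, with 6.69 CPM, and at 3.88 CPM in WT 3. Of the other genes of the slow-fibre list, Atp2a2 was also highest in WT 3, at 70.6 CPM, and Tpm3 and Pln lay in between. Csrp3, Ankrd2 and Myoz2 were lowest in WT 3. Myl3 had 79.1 CPM there against 169 and 186 CPM in WT 1 and WT 2, and Casq2 60.8 against 91.8 and 99.1 CPM. The slow-fibre genes thus did not share 1 order over the 6 libraries. M92KO 1, the highest library for the fast genes, was the lowest for Tnni1.

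**Figure D3:**
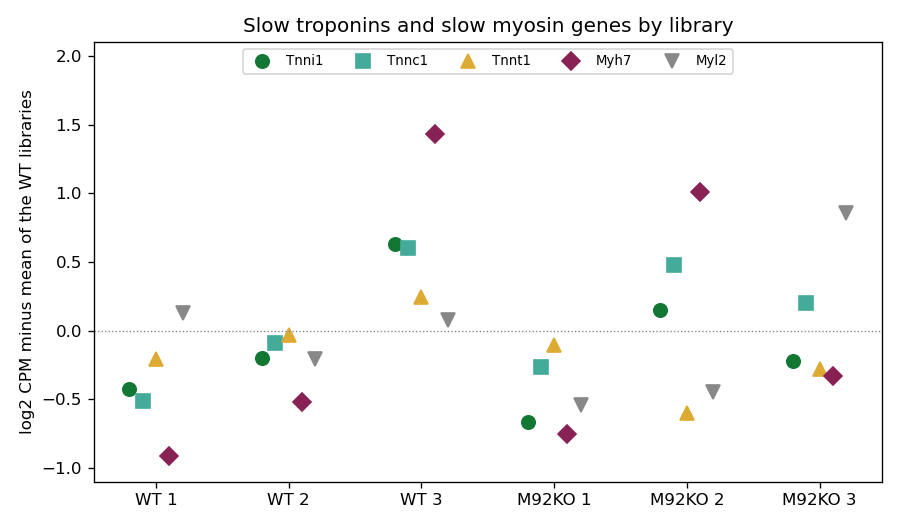
Log2 CPM of 3 slow troponin genes and 2 slow myosin genes in each library, minus the mean of the 3 WT libraries for that gene. Tnni1, Tnnc1 and Myh7 are highest in WT 3 and next highest in M92KO 2, while Tnnt1 is lowest in M92KO 2 and Myl2 highest in M92KO 3.

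The cardiac genes were present at traces. Tnnt2, the cardiac and embryonic troponin T gene, had 1.36, 2.05 and 1.80 CPM in WT and 2.22, 1.50 and 1.60 CPM in M92KO libraries. The groups overlapped throughout, with a log2 difference of 0.03 (standard error 0.24, 95% interval -0.52 to 0.58, adjusted p = 0.972 from edgeR). Tnni3, the cardiac troponin I gene, gave 17, 12 and 9 counts over the WT mice and 13, 6 and 6 over the M92KO mice, which is above the floor of 3 counts in each of them. Its log2 difference of -0.25 (standard error 0.46, 95% interval -1.30 to 0.80, adjusted p = 0.870 from edgeR) leaves changes to 0.405-fold or 1.74-fold inside the interval. An exon of Tnni3 overlaps one of Dnaaf3, which had 10 to 32 counts in a library. Reads from the overlap may belong to either gene, and how the counting assigned them is not known. Of the 8 heart-muscle markers listed (Myh6, Nppa, Nppb, Myl7, Myl4, Mybpc3, Ryr2 and Sln), 5 had enough counts to be tested, their summed level was 8.23 to 11.6 CPM in WT and 7.79 to 11.2 CPM in M92KO muscle, and 0 passed an unadjusted p-value of 0.05.

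Ratios within a library do not depend on library size. The log2 ratio of slow to fast counts was -11.68 ± 0.54 (SD, n = 3) in WT and -12.01 ± 0.55 (SD, n = 3) in M92KO muscle for troponin I (Tnni1 over Tnni2), with a two-sided exact permutation p = 0.5. For troponin C (Tnnc1 over Tnnc2) it was -11.52 ± 0.55 (SD, n = 3) in WT and -11.43 ± 0.60 (SD, n = 3) in M92KO muscle (exact p = 0.9). Both differences were smaller than the spread between mice. For troponin T (Tnnt1 over Tnnt3) the WT libraries had -11.55, -11.38 and -11.18 and the M92KO libraries -11.66, -11.94 and -11.58. Here the 3 M92KO values lay below the 3 WT values, with WT 1 and M92KO 3 close to each other. The difference of -0.36 had an exact p = 0.1, the smallest that 3 mice against 3 allow, and p = 0.3 after adjustment over the 3 ratios, which does not pass 0.05. With quantile-normalized values the difference was -0.28 (exact permutation p = 0.3) and the groups were no longer apart.

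Per length, the slow isoform made 0.0286% ± 0.0113 (SD, n = 3) of slow and fast troponin I transcripts in WT and 0.0227% ± 0.00807 (SD, n = 3) in M92KO muscle. For troponin T the slow share was 0.0487% ± 0.00624 (SD, n = 3) in WT and 0.0380% ± 0.00484 (SD, n = 3) in M92KO muscle. For troponin C it was 0.0348% ± 0.0136 (SD, n = 3) in WT and 0.0372% ± 0.0141 (SD, n = 3) in M92KO muscle. In other terms, between 1808 and 6978 fast transcripts stood against 1 slow transcript over the 3 subunits and 6 libraries.

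**Figure D4:**
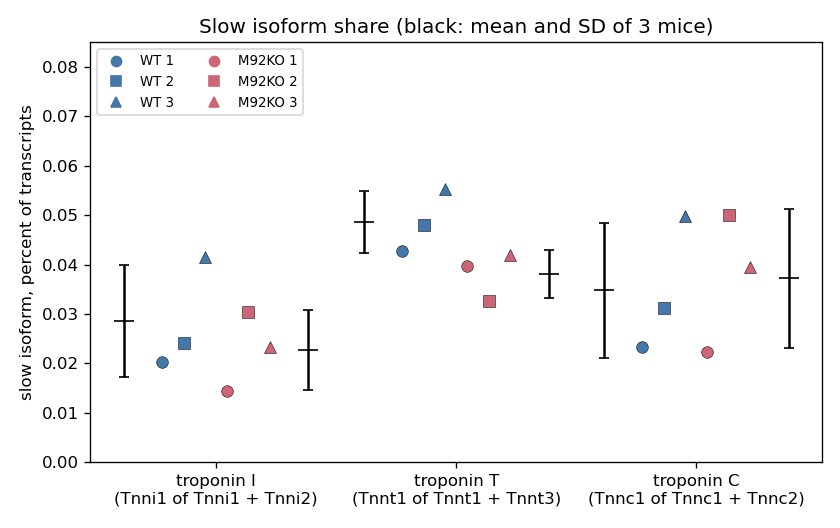
Share of the slow isoform among slow and fast transcripts of each troponin subunit, in percent per length, for each library (blue WT, red M92KO), with the mean and SD of 3 mice in black beside them. The WT and M92KO symbols overlap for troponin I and C, and for troponin T the M92KO libraries lie at 0.0326% to 0.0418% and the WT libraries at 0.0428% to 0.0553%.

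The 3 subunits form a complex of 1 copy each, but their RNA levels were unequal. Summed over isoforms and per length, troponin T stood at 1.67 ± 0.0248 (SD, n = 3) times troponin I in WT and at 1.61 ± 0.0214 (SD, n = 3) times in M92KO muscle. The WT ratios were 1.64, 1.68 and 1.69 and the M92KO ratios 1.61, 1.63 and 1.59, so they did not overlap, while the gap between the nearest libraries was smaller than the SD of either group. Troponin C stood at 1.10 ± 0.0136 (SD, n = 3) times troponin I in WT and 1.08 ± 0.0668 (SD, n = 3) times in M92KO muscle, with overlapping values. These ratios depend on the transcript lengths used: with the longest annotated transcript they were 1.79 and 1.73 for troponin T and 1.26 and 1.24 for troponin C.

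Of the partners of troponin on the thin filament, 10 of 10 genes were tested. Before adjustment 2 of them passed 0.05, both on the lower side (6.92% of all genes), and after it 0 did. The median log2 difference of the list was 0.05. The cardiac actin gene Actc1, also expressed in developing skeletal muscle, had 284, 433 and 484 CPM in WT and 197, 180 and 290 CPM in M92KO libraries, with a log2 difference of -0.85 (standard error 0.22, adjusted p = 0.214 from edgeR). Tpm3, the slow-fibre tropomyosin, had a log2 difference of -0.31 (adjusted p = 0.255 from edgeR). Its values did not overlap, with 58.7 to 70.3 CPM in WT and 49.5 to 57.4 CPM in M92KO muscle. Of all genes, 9.58% had M92KO values wholly below the WT values. Next by p-value was Neb, the gene of the thin-filament ruler nebulin, with 0.23 (adjusted p = 0.531 from edgeR).

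Of the 10 other slow-fibre genes, 4 passed 0.05 before adjustment, 3 of them higher and 1 lower, and 0 after it. Of all genes, 12.4% passed before adjustment, 5.47% higher and 6.92% lower. The median log2 difference of 0.12 was -0.02 without M92KO 3, 0.04 without M92KO 2 and 0.35 without M92KO 1. The higher ones were Csrp3 with a log2 difference of 3.004, Ankrd2 with 2.37 and Myoz2 with 0.78, and the lower one was Tpm3. Adjusted p-values from edgeR of these 4 lay between 0.179 and 0.281. The higher values came mostly from M92KO 2 and M92KO 3. Over the M92KO libraries Csrp3 had 126, 764 and 454 CPM and Ankrd2 208, 994 and 695 CPM, against at most 81.3 and 161 CPM in WT. Myoz2 had 55.0 CPM in M92KO 1, within the WT range of 47.4 to 58.8 CPM. Csrp3 and Ankrd2 encode proteins known to respond to stretch as well as to mark slow fibres. Csrp3 was lowest, at 36.8 CPM, in WT 3, where Tnni1, Tnnt1 and Tnnc1 were highest. Myoz2, a Z-disc gene, is named outside the rule for named genes, after its value was seen. Of the 12 fast-fibre genes, the median log2 difference was -0.00065 (-0.09 to 0.07 with 1 library left out). Among them, 1 passed the unadjusted threshold, on the higher side (5.47% of all genes). This was Myh2, the myosin of oxidative fast fibres, with a log2 difference of 0.70 (adjusted p = 0.314 from edgeR). In M92KO 1 it had 2018 CPM, within the WT range of 1612 to 2239 CPM. Next by p-value were Casq1 with -0.16 and the calcium pump gene Atp2a1 with -0.13.

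The 21 genes known for a part in fibre-type programmes include the repressor of slow genes Sox6 and the calcineurin and NFAT genes. Their median log2 difference was 0.06. Of them, 2 passed the unadjusted threshold, both on the higher side (5.47% of all genes). They were Gtf2ird1 (0.21) and Tbx15 (0.15), with adjusted p-values of 0.372 and 0.395 from edgeR, and next was the calcineurin regulator Rcan1 (0.50, adjusted p = 0.498). Embryonic and regenerating muscle genes, which could go along with Tnnt2, had a median log2 difference of -0.00489. Of 7 tested, 0 were higher and 1 lower (Actc1), against 5.47% and 6.92% of all genes. The list of smooth-muscle genes had 1 higher (Des, 0.23) and 0 lower of 5, beside the same shares of all genes. Des had a WT mean of 2074 CPM, against 86.2 CPM for Myh11, the next in level, so its value was not read as one of smooth-muscle cells. Myh11 had a log2 difference of 0.0016, Acta2 -0.03, Tagln 0.09 and Cnn1 0.24.

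RNA levels of marker genes of other cells also varied between libraries. Whether the numbers of these cells differed was not tested. Summed over the 6 fibroblast markers, the level was 1400 to 1860 CPM in WT and 946 to 1321 CPM in M92KO muscle. Of these markers, 2 passed the unadjusted threshold, on the lower side (6.92% of all genes). The 6 fat-cell markers summed to 4.19 to 11.7 CPM in WT and 7.46 to 21.3 CPM in M92KO muscle, and the 5 red-cell genes to 74.0 to 223 CPM and 143 to 336 CPM. Nerve and Schwann-cell genes summed to 123 to 166 CPM in WT and 121 to 126 CPM in M92KO muscle. Here 3 of 6 passed that threshold on the lower side, against 6.92% of all genes. Endothelial genes summed to 820 to 897 CPM and 718 to 906 CPM and macrophage genes to 91.4 to 102 CPM and 70.9 to 101 CPM, with 0 of 6 past it in each list. A part of such cells in the values of the troponin genes was not tested.

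Over the 6 libraries, genes near to the mean profile of Tnni1, Tnnt1 and Tnnc1 were Gm17202, Jun, Snhg14 and Ntng1, with root mean square differences of 0.0365 to 0.111 in centred log2 CPM. Each of them was highest in WT 3, as the slow troponins were. Nearest to the mean profile of Tnni2, Tnnt3 and Tnnc2 were Rack1, Foxp4, Ppm1j, Psme2 and Polr2d, with differences of 0.0104 to 0.0191, and each was highest in M92KO 1. With 15788 genes and 6 libraries many genes share such a profile, so likeness is a description only.

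Mature miR-92b has an arm on each side of its hairpin (RefSeq, GRCm38.p6, chromosome 3, minus strand), and both are shown because their seeds, bases 2 to 8 in capitals, define the match searched in the troponin mRNAs.
miR-92b-3p: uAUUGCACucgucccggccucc
miR-92b-5p: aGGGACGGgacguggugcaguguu

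Annotated 3′-UTRs of the troponin genes were short, from 58 bases in Tnni2 to 379 bases in Tnni1. A match of 7 or 8 bases to either seed was found in 0 of the 8 genes, where 13.3% of 20936 genes with a 3′-UTR hold one for miR-92b-3p and 4.54% for miR-92b-5p. Both kinds of 7-base match (bases 2 to 8, or bases 2 to 7 followed by A) and the 8-base match were counted, on the transcript strand. With 6 bases, Tnnt3 had 1 match to miR-92b-3p and Tnni3 had 1 to miR-92b-5p, where 25.7% and 7.88% of genes hold one. The sites are shown with the matched bases in capitals, at chr7:142515940-142515965 (plus strand) for Tnnt3 and chr7:4518328-4518353 (minus strand) for Tnni3.
Tnnt3: tcaggacccaccctgcTGCAATgccc
Tnni3: actgtgctctgaaggaCGTCCCtgca
The log2 differences of Tnnt3 (0.03) and Tnni3 (-0.25) did not pass the test. A match is a run of letters, not a shown site.

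Of the 8 genes, Tnnc1, Tnni2 and Tnnc2 were also measured by qPCR in the study, and the primers are shown because they set which part of each mRNA that assay reads. Their places were found in the GENCODE M21 transcripts of GRCm38.
Tnnc1 forward: gcggtagaacagttgacagag
Tnnc1 reverse: ccagctccttggtgctgat
Tnni2 forward: agagtgtgatgctccagatagc
Tnni2 reverse: agcAacgtcgatcttcgca
Tnnc2 forward: gaggccaggtcctacctcag
Tnnc2 reverse: ggtgcccaactctttaacgct

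The Tnnc1 pair spans 103 bases of mRNA, with the forward primer across the junction of exons 1 and 2 and the reverse primer in exon 3 (chr14:31210110-31210128). The Tnnc2 pair spans 108 bases from exon 2 (chr2:164778193-164778212) to exon 3 (chr2:164778017-164778037). The Tnni2 pair spans 170 bases from the junction of exons 3 and 4 to exon 5 (chr7:142443591-142443609), and its reverse primer differs from the annotated sequence by 1 base, A4C, in which the primer has the first letter and the site the second, counted from the 5′ end of the primer and shown in capitals. With exact matches of both primers required, 0 other genes held a pair; for Tnni2, whose reverse primer does not match its own gene exactly, this search says little. In the libraries, the 3 genes read by these primers had log2 differences of 0.09, 0.08 and 0.06, in that order, and the interval of each included 0.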

How the data were processed

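RNA of Gas muscle from 3 WT and 3 M92KO mice was sequenced with 1 library per mouse. The authors deposited raw counts of reads for 34714 gene symbols, made with a SMARTer kit and not normalized. The aligner, counter, strandedness and annotation are not given in the sources used here, and the submitters' processing notes name GRCm38 and mm10. All values come from these counts. Tests used edgeR 4.0.16 under R 4.3.3 (filterByExpr with minimum count 10 and minimum total 15, TMM, glmQLFit and glmQLFTest without a covariate), with Benjamini-Hochberg adjustment over all genes tested, and 95% intervals from the standard error. The fit was tested on simulated data of this comparison over 15570 genes, in which 80 of 99 genes changed by 1 and 92 of 95 changed by 2 on the log2 scale were recovered, with 8 false calls. Genes were simulated independently of each other, without shifts shared by many genes of a library. In the libraries themselves Csrp3, with a log2 difference of 3.004, had an adjusted p of 0.179 from edgeR. The recoveries thus do not give the power of the real comparison.

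Levels were divided by the median length of coding transcripts in GENCODE M21, to which 25731 symbols matched directly and 424 by synonym. Ratios were compared with two-sided exact permutation tests over mice. Each pair of libraries of a group differed by more than sampling noise (chi-square per degree of freedom 10.9 to 57.4). No source ties mice of different genotypes to each other, and p-values measure the spread between these mice. The members and lists were chosen with earlier results of these data known. Named genes are the 8 members, the 3 lowest p-values of each muscle gene list, and the 5 genes nearest to the slow and to the fast profile in centred log2 CPM (prior count 2), of which 1 is not reported here. Alternatives were DESeq2 1.42.0 (its size factors in edgeR, and its Wald test), other filters, limma 3.58.1 after the quantile normalization and log2(count + 1) of the supplementary methods, lowess offsets (span 0.3) for GC content and for length, the replicate number as a block, and leaving out libraries. Figures were made in Python 3.11.15 with matplotlib 3.10.9.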

Additional observations from a re-analysis of the deposited data

How the results depend on the processing

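No troponin gene passed an adjusted p-value of 0.05 in any setting run. Over the alternatives, Tnnt1 and Tnni3 kept their direction in 15 of 15 and 14 of 14 settings (Tnni3 could not be fitted with at least 10 counts required in every library), and the other genes, whose differences were near 0 or rested on 1 library, changed sign in 2 to 4 of 15. With limma after quantile normalization, the log2 differences were -0.0982 for Tnni2, -0.0083 for Tnnt3 and -0.0271 for Tnnc2. Offsets for GC content and length gave -0.0057 for Tnnt2, and -0.0004 for Tnnt3 with the replicate block added. With 1 library left out at a time, the differences ran from -0.52 to 0.10 for Tnni1, -0.0029 to 0.12 for Tnni2, -0.72 to -0.03 for Tnni3, -0.45 to -0.20 for Tnnt1, -0.16 to 0.16 for Tnnt2, -0.0536 to 0.0753 for Tnnt3, -0.14 to 0.47 for Tnnc1 and -0.0774 to 0.14 for Tnnc2. Leaving out WT 3 and M92KO 1 together, chosen after seeing the data, gave 0.30 for Tnni1, -0.13 for Tnnt2, -0.03 for Tnnt3, -0.07 for Tnnc2, -0.96 for Tnni3 (edgeR adjusted p = 0.413) and 0.65 for Tnnc1, which passed the unadjusted threshold of 0.05 but not the adjusted one (edgeR adjusted p = 0.295). Of all genes tested in that setting, 2439 of 15879 passed the unadjusted threshold. The slow to fast log2 ratio ran from -0.58 to -0.03 for troponin I, -0.45 to -0.25 for troponin T and -0.16 to 0.43 for troponin C with a library left out, and quantile normalization gave -0.11, -0.28 and 0.22 in that order, with an exact permutation p of 0.3 for troponin T in place of 0.1. With the longest transcript in place of the median, the slow share of troponin T was 0.0345% over 6 libraries instead of 0.0434%, and 0.0338% without division by length, and the ratio to troponin I was 1.76 for troponin T and 1.25 for troponin C, against 1.64 and 1.09. Each miR-92b arm had a match in 1 member with 6 bases, against 0 with 7 or 8.

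Same-numbered WT and M92KO libraries had correlations of 0.0806, 0.0376 and 0.0151 in their deviations from the group means. WT 1 and WT 2 correlated best with the library of the same number, and WT 3 with M92KO 2 (0.0365). These correlations were low and no source ties the mice, so the numbers were not taken to pair them. The replicate block gave 0 of 8 members and 2 genes in all at an adjusted p-value of 0.05, with log2 differences of -0.33 for Tnnt1, -0.27 for Tnni1 and 0.13 for Tnnc1, and sign-flip tests of the paired slow to fast ratios cannot give a p below 0.25. Over all genes, the number with an adjusted p-value under 0.05 was 0 here, 312 with DESeq2's Wald test, 42 with limma after quantile normalization, 6 without a filter on low counts and 401 without M92KO 1. Counts of 6 to 157 limit Tnni1, Tnni3, Tnnc1 and Tnnt2, whose intervals reach from 0.405-fold (Tnni3) to 1.76-fold (Tnnc1).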
